A study of Mus musculus with 6 samples.

Results

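The nuclear genome holds most subunit genes of respiratory complexes III and IV and of complex V, the ATP synthase, and their mRNAs were compared between control and PGAM5 KD macrophages. The set was every protein-coding gene whose symbol in the GENCODE M21 annotation is Cyc1 or starts with Uqcr, Cox4, Cox5, Cox6, Cox7, Cox8 or Atp5. This gave 45 of the 54532 genes listed, 9 of complex III, 18 of complex IV and 18 of complex V. RNA-seq was performed on 6 libraries of iBMDMs, mouse bone marrow-derived macrophages that grow as a line because retroviral v-raf and v-myc were introduced. The 3 control libraries came from cells with a control shRNA (shControl) and the 3 PGAM5 KD libraries from cells in which a lentivirus delivered an shRNA against Pgam5 (shPGAM5), a mitochondrial phosphatase that acts on the fission protein Drp1. Cells of both groups had received LPS at 100 ng/ml for 4 hours, so no library measures the state before LPS. The comparison asks how the transcripts of these complexes stood in LPS-treated macrophages with less PGAM5. An effect of the knockdown and one of the infected cell population or of the shRNA sequence cannot be told apart, and nothing says that the 3 replicates of a group were separate cultures, so p-values may measure technical spread alone.

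Complex III passes electrons from ubiquinol to cytochrome c, and complex IV passes them from cytochrome c to oxygen. Both move protons out of the mitochondrial matrix as they do so, and complex V lets the protons flow back through its membrane ring to turn a stalk that drives ATP synthesis. Each complex joins nuclear-encoded subunits to subunits made inside the mitochondrion, and macrophages are known to shift from respiration towards glycolysis after LPS.

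Libraries held from 18163464 to 24388917 fragments, as recovered from the deposited FPKM, a fragment count scaled by exon length and by the depth of the library. FPKM summed over all genes was 304393 to 304889 in control libraries and 317936 to 324298 in PGAM5 KD libraries. Pgam5 itself stood at 17.1, 13.0 and 13.4 FPKM in control and at 4.33, 5.75 and 4.53 FPKM in PGAM5 KD libraries. The groups did not overlap, and the log2 fold change of Pgam5, on log2(FPKM + 1) like all others, was -1.40 (SE 0.127, limma, adjusted p = 0.000358). The macrophage genes Csf1r, Cd68, Lyz2 and Cd14 were abundant in each library, whereas Mertk and Mrc1 were at or near 0. Of the 7 macrophage markers tested, 4 were higher and 3 lower in PGAM5 KD cells (limma, adjusted p under 0.05). Of all genes tested, 16.8% were higher and 14.9% lower. The 9 listed markers summed to between 2802 and 2894 FPKM in control and between 2526 and 2545 FPKM in PGAM5 KD libraries. The part of these markers in the results was not tested. Of 7 neutrophil, 7 fibroblast and 8 lymphocyte markers, 0 reached a mean of 1 FPKM, and each list summed to 0.568 FPKM or less in every library. Less RNA per cell and fewer cells of one state cannot be told apart in bulk RNA.

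Some subunit mRNAs of complexes III, IV and V were slightly more abundant in PGAM5 KD than in control iBMDMs, and how many depended on the scaling. Of the 45 genes, 38 had a mean of at least 1 FPKM and were tested. A gene was called at an adjusted p under 0.05 in limma, fitted over all 10540 genes that passed the same filter. Of the 38, 18 were called higher (47.4%), beside 16.8% of all genes tested. None was called lower, beside 14.9% of all genes. No subunit gene was lower at an unadjusted p under 0.05 either, beside 20.1% of all genes, and 24 were higher at that level, beside 22.7%. With voom on the recovered fragments, 21 were higher (55.3%, beside 18.8% of all genes) and 0 lower. The remaining 20 genes did not pass the test. The largest log2 fold change was 0.31, and 0 of the 38 genes were called with an absolute log2 fold change above 1, whereas 1.32% of all genes were. In 34 of the 38 genes the log2 fold change was above 0, and its median was 0.17 beside 0.01 over all genes tested. Every PGAM5 KD library lay above every control library for 24 of the 38 genes (63.2%), which held for 24.2% of all genes. For a gene whose groups did not overlap, an exact two-sided permutation test gave p = 0.1, the smallest that 3 libraries against 3 allow. Summed over the 45 genes, the share of all FPKM was 1.41%, 1.39% and 1.41% in control libraries and 1.49%, 1.46% and 1.52% in PGAM5 KD libraries.

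**Figure D1:**
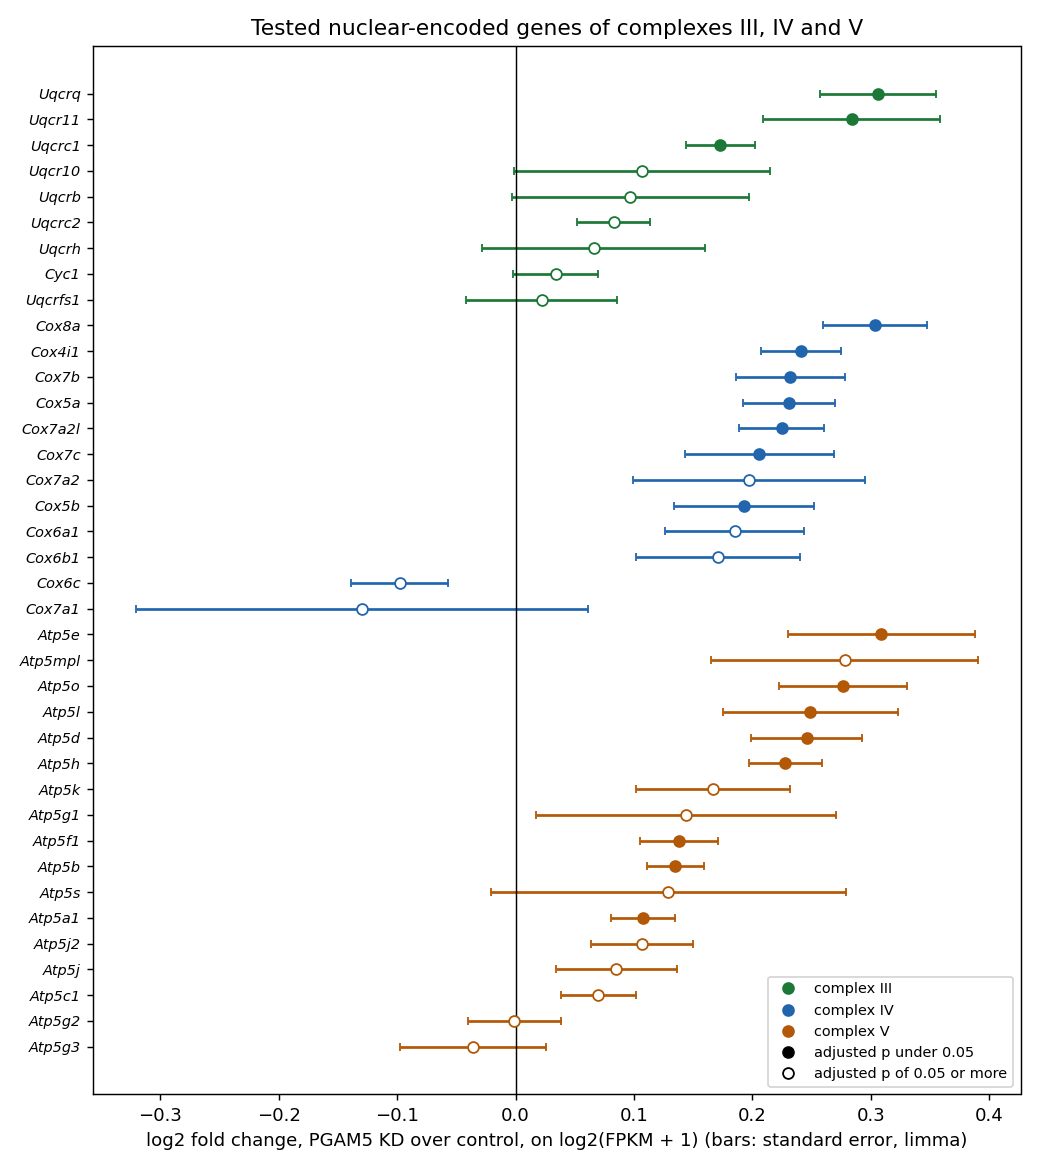
The log2 fold change of PGAM5 KD over control on log2(FPKM + 1), with its standard error, for the 38 tested genes, ordered by complex and by size. Filled points mark the 18 genes with an adjusted p under 0.05, and 34 points lie to the right of 0.

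The size of these counts depended on how libraries were scaled. Scaling to TPM, which removes the difference in summed FPKM, left 8 of the 38 genes higher (21.1%) beside 10.3% of all genes, and Cox6c was then called lower. Over all genes, 1088 were higher and 2282 lower after this scaling, against 1771 and 1575 in the deposited FPKM, and the median of all genes moved from 0.01 to -0.06. Quantile normalization left 10 genes higher (26.3%) beside 13.6% of all genes, and Atp5a1 was then called lower. A correction for exon length and GC content left 7 genes higher (18.4%), close to the 14.6% of all genes, with Cox6c lower. The median log2 fold change of the 38 genes was 0.09 with TPM, 0.11 with quantile normalization and 0.08 with the correction. The 8 genes called with TPM were Uqcrq, Cox4i1, Cox5a, Cox7a2l, Cox8a, Atp5d, Atp5h and Atp5o. The 10 called with quantile normalization were Uqcrc1, Uqcrq, Cox4i1, Cox5a, Cox7a2l, Cox7b, Atp5d, Atp5e, Atp5h and Atp5o, and the 7 called with the correction were Uqcrc1, Uqcrq, Cox4i1, Cox8a, Atp5b, Atp5f1 and Atp5l. Uqcrq and Cox4i1 were called higher in all 17 alternative fits, and they were the only 2 of the 18 to do so.

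Exon length and expression level moved with these results. The summed exon length of the 38 genes had a median of 1716 bases, against 4097 bases over all genes tested. Across quintiles of exon length, the median log2 fold change of all genes went from 0.13 in the shortest to -0.10 in the longest, and 22.4% and 6.56% of genes were called higher there. The shortest quintile held 22 of the 38 genes and the longest held 0. In the quintile of highest mean FPKM 30.8% of genes were called higher, and 34 of the 38 genes lay in it. How far length or level account for the counts was not tested beyond the correction above.

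Promoters of respiratory chain genes are known for binding sites of NRF1 and of the ETS factor GABPA. RefSeq promoters on GRCm38.p6, from 250 bases before to 50 after each start, were matched for 33 of the 45 genes. The NRF1 core GCGCATGCG, on either strand, was in 6 of the 33 (18.2%) and in 1.95% of the promoters of 27025 genes. The letters CCGGAAGT, an ETS site on either strand, were in 4 of the 33 (12.1%) and in 4.31% of all. Among the 15 called genes with a promoter, 3 held the NRF1 core and 3 the ETS site, and among the 15 tested genes that were not called, 3 and 1 did. The YY1 letters AAGATGGC were in 3 of the 33 (9.09%) and in 3.19% of all. The letters TCAAGGTCA of the ERR receptors and TGACGTCA of CREB were each in 1 of the 33 (3.03%), and in 0.466% and 2.03% of all promoters. The examples that follow run 5′ to 3′ on the strand of the gene, are 170 bases long each and end before any annotated exon, with the matches in capitals. Uqcr11, a called gene, is shown for its ETS match (chr10:80406831-80407000, minus strand), Uqcrh, which was not called, for the same match on the other strand (chr4:116075072-116075241, minus strand), and Cox6a1, just short of the threshold, for the NRF1 core, which reads on both strands there (chr5:115348982-115349151, minus strand).
Uqcr11: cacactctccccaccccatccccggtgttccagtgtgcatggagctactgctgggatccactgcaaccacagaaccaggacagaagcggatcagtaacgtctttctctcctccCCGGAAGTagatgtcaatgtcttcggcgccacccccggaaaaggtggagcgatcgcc
Uqcrh: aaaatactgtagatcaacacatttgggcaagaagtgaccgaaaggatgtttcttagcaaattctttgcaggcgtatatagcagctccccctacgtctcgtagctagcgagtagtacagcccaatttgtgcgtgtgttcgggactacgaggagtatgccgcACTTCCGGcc
Cox6a1: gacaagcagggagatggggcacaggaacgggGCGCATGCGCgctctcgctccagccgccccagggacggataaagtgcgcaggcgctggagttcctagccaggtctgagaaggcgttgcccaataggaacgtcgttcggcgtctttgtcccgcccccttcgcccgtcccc
The match began 66 bases before the RefSeq start in Uqcr11, 11 bases before it in Uqcrh and 162 bases before it in Cox6a1. A match of letters is a description and shows no binding in these cells.

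In complex III, 3 of 9 genes were higher in PGAM5 KD cells (33.3%, beside 16.8% of all genes), against 1 with TPM (11.1%, beside 10.3%) and 2 with the correction for exon length and GC content (22.2%, beside 14.6%). The median log2 fold change was 0.10 in the deposited FPKM and -0.015 after the correction. All 3 were structural subunits that carry no redox group. Uqcrq, a small membrane subunit beside cytochrome b, measured 61.2, 57.4 and 57.2 FPKM in control and 68.7, 72.8 and 76.6 FPKM in PGAM5 KD libraries. Each PGAM5 KD library was above each control library, and Uqcrq was 1.24-fold higher, a log2 fold change of 0.31 (SE 0.049, limma, adjusted p = 0.00426). Uqcr11, another small subunit, whose promoter stretch is shown above, measured 69.1, 59.5 and 62.8 FPKM in control and 75.0, 73.3 and 85.5 FPKM in PGAM5 KD libraries. Its groups did not overlap, with control replicate 1 and PGAM5 KD replicate 2 the closest, and its log2 fold change was 0.28 (SE 0.075, limma, adjusted p = 0.0276). The call for Uqcr11 was lost without control replicate 2 (adjusted p = 0.0835 in limma), control replicate 3 (0.0798) or PGAM5 KD replicate 3 (0.0669). Uqcrc1, core protein 1 on the matrix side, measured 78.6, 76.8 and 77.3 FPKM in control and 88.3, 86.4 and 88.0 FPKM in PGAM5 KD libraries. The libraries of each group lay within 2 FPKM of each other, and Uqcrc1 was 1.13-fold higher (log2 fold change 0.17, SE 0.029, limma, adjusted p = 0.00484). It lost the call with TPM, at an adjusted p of 0.0596 in limma.

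The nuclear-encoded subunits of complex III that carry electrons did not pass the test. Cyc1, the heme-bearing cytochrome c1, measured 116.7, 112.0 and 119.7 FPKM in control and 116.4, 118.3 and 122.1 FPKM in PGAM5 KD libraries. The groups overlapped, and the log2 fold change was 0.03 (SE 0.036, limma, adjusted p = 0.511). Uqcrfs1, the Rieske iron-sulfur protein, measured 125.8, 118.0 and 109.6 FPKM in control and 112.7, 118.2 and 127.9 FPKM in PGAM5 KD libraries. These ranges were nearly the same, and its log2 fold change was 0.02 (SE 0.064, limma, adjusted p = 0.819). Both turned below 0 with TPM, quantile normalization and the correction for exon length and GC content, and Uqcrfs1 also without control replicate 3 or PGAM5 KD replicate 3. Uqcrc2, core protein 2, was the single uncalled gene of the complex whose groups did not overlap, at 75.0 to 75.8 FPKM in control and 77.9 to 81.7 FPKM in PGAM5 KD libraries (log2 fold change 0.08, SE 0.031, limma, adjusted p = 0.0828). The hinge protein Uqcrh, whose promoter stretch holds the same ETS letters as that of Uqcr11, ranged from 120.6 to 133.5 FPKM in control and from 117.4 to 153.9 FPKM in PGAM5 KD libraries (log2 fold change 0.07, SE 0.094, limma, adjusted p = 0.630). Uqcrb and Uqcr10, small subunits, had log2 fold changes of 0.10 and 0.11 with overlapping groups.

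In complex IV, 7 of the 12 tested genes were higher (58.3%, beside 16.8% of all genes), the largest share of the 3 complexes in the deposited FPKM but not after the correction, and the median log2 fold change was 0.20. With TPM 4 were higher (33.3%, beside 10.3%), and with the correction for exon length and GC content 2 were (16.7%, near the 14.6% of all genes). Whether it differed from the other complexes was not tested. Cox8a is a small membrane subunit, and its mRNA was the most abundant per length among the nuclear-encoded complex IV genes of the set. It measured 327.4, 309.2 and 331.5 FPKM in control and 416.9, 378.9 and 400.2 FPKM in PGAM5 KD libraries. No libraries overlapped, and Cox8a was 1.24-fold higher (log2 fold change 0.30, SE 0.044, limma, adjusted p = 0.00281). With quantile normalization its call was lost (limma, adjusted p = 0.0771). Cox4i1, the general form of subunit 4, which binds ATP and takes part in the allosteric control of the enzyme, measured 251.1, 248.7 and 246.4 FPKM in control and 282.9, 294.7 and 305.5 FPKM in PGAM5 KD libraries. The 3 PGAM5 KD libraries were all above the tight control group, and the log2 fold change was 0.24 (SE 0.034, limma, adjusted p = 0.00248). Cox7b, another small membrane subunit, measured 81.4, 82.9 and 77.1 FPKM in control and 99.6, 93.9 and 90.5 FPKM in PGAM5 KD libraries, again without overlap. Its log2 fold change was 0.23 (SE 0.046, limma, adjusted p = 0.0101).

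Cox5a, a matrix-side subunit that binds thyroid hormone, measured 50.7, 52.8 and 53.9 FPKM in control and 59.6, 62.8 and 62.8 FPKM in PGAM5 KD libraries. All PGAM5 KD libraries were higher, with a log2 fold change of 0.23 (SE 0.039, limma, adjusted p = 0.00497). Cox7a2l, or SCAF1, which links complexes III and IV into supercomplexes, measured 86.1, 91.0 and 91.9 FPKM in control and 102.7, 105.5 and 106.7 FPKM in PGAM5 KD libraries. The gap between the groups was wider than the range of either one, and the log2 fold change was 0.23 (SE 0.036, limma, adjusted p = 0.00413). After the correction for exon length and GC content, the calls of Cox5a, Cox7a2l and Cox7b were lost at adjusted p-values of 0.0828, 0.0786 and 0.170 in limma. The remaining called genes were Cox7c (log2 fold change 0.21, limma, adjusted p = 0.0452) and the zinc-binding matrix-side subunit Cox5b (log2 fold change 0.19, limma, adjusted p = 0.0435), both close to the threshold. Cox7c kept its call only when control replicate 1 was the library left out, and the other 5 omissions gave adjusted p-values from 0.0797 to 0.112 in limma. Cox5b lost its call without control replicate 2 or 3, or without PGAM5 KD replicate 2 or 3, with adjusted p-values from 0.0808 to 0.126 in limma. A near-identical gene, Gm11273, shares sequence with Cox5b, and between 87.6% and 93.5% of the fragments on the pair were counted on Cox5b. The log2 difference of the summed fragments of the pair was 0.16.

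**Figure D2:**
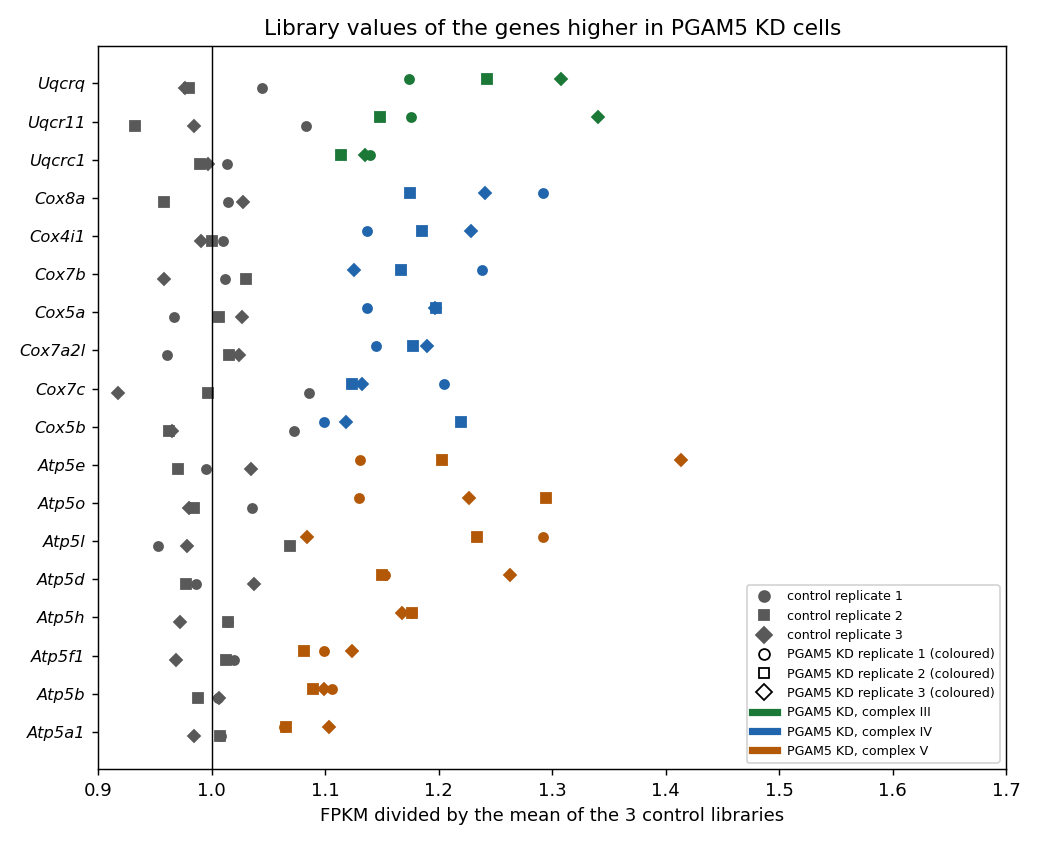
FPKM of each library divided by the mean of the 3 control libraries, for the 18 genes called higher in PGAM5 KD cells. Grey symbols are control libraries and coloured symbols PGAM5 KD libraries, with the replicate given by the shape. In each row all coloured symbols lie to the right of all grey ones, and Atp5e of PGAM5 KD replicate 3 lies farthest to the right.

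The other widely expressed complex IV subunits were not called. Cox6a1, which carries the NRF1 match shown above, measured 246.0, 247.4 and 286.0 FPKM in control and 292.1, 292.9 and 299.2 FPKM in PGAM5 KD libraries. Control replicate 3 stood apart from the other controls, and the log2 fold change was 0.19 (SE 0.059, limma, adjusted p = 0.0516), with an adjusted p of 0.00374 without that library. Cox6b1, on the intermembrane side where cytochrome c docks, measured 203.3, 214.4 and 191.7 FPKM in control and 215.3, 219.9 and 252.3 FPKM in PGAM5 KD libraries. Its groups just failed to overlap (log2 fold change 0.17, SE 0.069, limma, adjusted p = 0.101). Cox7a2 measured 120.8, 128.8 and 133.2 FPKM in control and 124.1, 157.1 and 160.4 FPKM in PGAM5 KD libraries. PGAM5 KD replicate 1 fell among the controls, the log2 fold change was 0.20 (SE 0.098, limma, adjusted p = 0.171), and without that library the adjusted p was 0.00591. Cox6c, another membrane subunit, was the only tested gene with every PGAM5 KD library below every control library, at 32.3, 32.9 and 31.8 FPKM in control and 28.8, 30.6 and 31.1 FPKM in PGAM5 KD libraries. Its log2 fold change was -0.10 (SE 0.041, limma, adjusted p = 0.117), and with TPM and with the correction for exon length and GC content it was called lower (adjusted p = 0.0151 and 0.0449 in limma). Exons of Cox6c share 250 bases with Vps13b on the other strand, and whether the counting used strand is not given.

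The tissue-restricted isoforms of complex IV were measured at low values or listed at 0. Cox7a1, the form of heart and skeletal muscle, was the only one tested, at 2.57, 1.67 and 3.26 FPKM in control and 2.47, 1.65 and 2.38 FPKM in PGAM5 KD libraries. The groups overlapped (log2 fold change -0.13, SE 0.191, limma, adjusted p = 0.640), and the sign turned without control replicate 3 (0.03). Cox6a2, also of striated muscle, had 1.78, 0.0729 and 0.527 FPKM in control and 0.468, 1.62 and 1.03 FPKM in PGAM5 KD libraries, or between 1 and 22 fragments a library. Cox4i2, a form known from lung and from low oxygen, had 0.629, 0.377 and 0.715 FPKM in control and 0.231, 0.279 and 0.468 FPKM in PGAM5 KD libraries, from 4 to 11 fragments. Both overlapped between the groups and were below the filter. Cox7b2 was listed at 0 in 5 libraries and had 2 fragments in PGAM5 KD replicate 3. Cox6b2, Cox8b and Cox8c were listed at 0 in each library. The widely used complex IV assembly genes Sco2 and Pet117 were listed at 0 in all 6 libraries too, so a listed 0 need not mean that a gene is not expressed. A further gene named Atp5o in the annotation, which shares 243 exon bases with the main Atp5o gene, was also listed at 0 in each library.

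In complex V, 8 of 17 tested genes were higher in PGAM5 KD cells (47.1%, beside 16.8% of all genes), and the median log2 fold change was 0.14. With TPM and with the correction for exon length and GC content 3 were higher (17.6%, beside 10.3% and 14.6% of all genes). In the F1 head and central stalk, where ATP is made, 4 of 5 genes were called, against 1 of 5 with TPM and 1 of 5 with the correction. Atp5a1, the alpha subunit and the most abundant mRNA of the 45 per length, measured 525.6, 524.8 and 513.0 FPKM in control and 554.5, 555.3 and 575.0 FPKM in PGAM5 KD libraries. The groups lay close but apart, with a 1.08-fold difference (log2 fold change 0.11, SE 0.027, limma, adjusted p = 0.0243). This call was among the least stable. Without control replicate 1, 2 or 3, or PGAM5 KD replicate 2 or 3, adjusted p-values were 0.0538, 0.0603, 0.0815, 0.0566 and 0.0750 in limma, and under quantile normalization the difference turned to -0.12 and was called lower (adjusted p = 0.0140). Atp5b, the catalytic beta subunit, measured 416.1, 408.8 and 416.5 FPKM in control and 457.4, 450.7 and 454.8 FPKM in PGAM5 KD libraries. Each group spanned less than 8 FPKM, and Atp5b was 1.10-fold higher (log2 fold change 0.13, SE 0.024, limma, adjusted p = 0.00664), but -0.03 under quantile normalization.

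The small central stalk subunits showed larger differences. Atp5e, the epsilon subunit, measured 49.6, 48.3 and 51.6 FPKM in control and 56.4, 59.9 and 70.4 FPKM in PGAM5 KD libraries. PGAM5 KD replicate 3 stood above the rest, and Atp5e was 1.25-fold higher, the largest log2 fold change of the set at 0.31 (SE 0.079, limma, adjusted p = 0.0248). Leaving out control replicate 1, 2 or 3 ended this call (adjusted p = 0.0658, 0.0766 and 0.0514 in limma), as did TPM (0.0541), the correction for exon length and GC content (0.105) and no filter on low values (0.0701). Atp5d, the delta subunit, measured 107.6, 106.7 and 113.2 FPKM in control and 125.9, 125.5 and 137.9 FPKM in PGAM5 KD libraries. No library of one group reached the other, and the log2 fold change was 0.25 (SE 0.047, limma, adjusted p = 0.00816). Atp5c1, the gamma subunit, was not called, although control libraries (146.9 to 155.5 FPKM) lay below PGAM5 KD libraries (155.6 to 159.7 FPKM) by a narrow margin (log2 fold change 0.07, SE 0.032, limma, adjusted p = 0.141).

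The peripheral stalk, which holds the F1 head still, had 3 of 4 tested genes called, beside 16.8% of all genes, against 2 with TPM and 1 with the correction for exon length and GC content. Atp5o, the OSCP subunit that joins stalk and head, measured 58.4, 55.6 and 55.3 FPKM in control and 63.8, 73.1 and 69.2 FPKM in PGAM5 KD libraries. PGAM5 KD libraries were all higher, and the log2 fold change was 0.28 (SE 0.054, limma, adjusted p = 0.00914). Atp5h, subunit d, measured 79.3, 79.3 and 75.9 FPKM in control and 91.9, 92.0 and 91.2 FPKM in PGAM5 KD libraries. This was the smallest adjusted p of the set (log2 fold change 0.23, SE 0.031, limma, adjusted p = 0.00200). Atp5f1, subunit b, ranged from 105.6 to 111.1 FPKM in control and from 117.9 to 122.5 FPKM in PGAM5 KD libraries (log2 fold change 0.14, SE 0.033, limma, adjusted p = 0.0196), and lost its call without control replicate 3 (0.0613) or PGAM5 KD replicate 3 (0.0641). Atp5j, coupling factor 6, was not called (log2 fold change 0.09, SE 0.051, limma, adjusted p = 0.251). Its exons share 397 bases with Gabpa on the other strand, and with the strand setting not given the reads of Atp5j (mean 33.0 FPKM) and Gabpa (21.6 FPKM) cannot be told apart there. The same holds for 337 bases of Atp5f1 and Wdr77, 129 of Atp5a1 and Haus1, and 154 of Cox4i1 and Emc8. After the correction for exon length and GC content, Atp5o, Atp5h and Atp5d were above an adjusted p of 0.05 in limma, at 0.0655, 0.0680 and 0.0561. Atp5h resembles 7 other genes in sequence and held 85.1% to 89.8% of the fragments on the group, and the log2 difference of the summed fragments was 0.20.

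None of the 3 genes of the c-ring, the proton-driven rotor, was called, beside 16.8% of all genes called higher and 14.9% lower. Atp5g1, Atp5g2 and Atp5g3 encode the same mature protein behind different import sequences. Atp5g3, the most abundant per length, measured 126.2, 124.6 and 124.7 FPKM in control and 114.8, 116.8 and 135.4 FPKM in PGAM5 KD libraries. PGAM5 KD libraries fell on both sides of the tight controls (log2 fold change -0.04, SE 0.062, limma, adjusted p = 0.692). Atp5g2 measured 82.2, 84.1 and 81.0 FPKM in control and 81.3, 79.5 and 86.3 FPKM in PGAM5 KD libraries. The group means, 82.4 FPKM in each, were nearly equal (log2 fold change -0.001, SE 0.039, limma, adjusted p = 0.983). Atp5g1 measured 15.6, 11.2 and 11.1 FPKM in control and 14.7, 14.2 and 12.8 FPKM in PGAM5 KD libraries. Control replicate 1 lay above all others (log2 fold change 0.14, SE 0.127, limma, adjusted p = 0.429), and without it the adjusted p was 0.0279. Its annotated exons sum to 4912 bases, and which of them are transcribed here was not tested, so its FPKM may not be comparable with that of the other c-ring genes. Parts of its exons resemble 62 other genes, for example Eif4g2 at 86.8% identity over 204 bases. Atp5g1 held 1.43% to 2.05% of the fragments on them all, and the log2 difference of the summed fragments was 0.04. The difference between the c-ring and the other parts of the enzyme was not tested.

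Of the 4 subunits of the membrane region, which help the enzyme form dimers at the folds of the inner membrane, 1 was called (25.0%, beside 16.8% of all genes). With TPM and with quantile normalization 0 were called, beside 10.3% and 13.6% of all genes. With the correction for exon length and GC content 1 was (25.0%, beside 14.6%). Atp5l, subunit g, measured 13.7, 15.4 and 14.1 FPKM in control and 18.6, 17.8 and 15.6 FPKM in PGAM5 KD libraries. PGAM5 KD replicate 3 came within 1 FPKM of control replicate 2, and the log2 fold change was 0.25 (SE 0.074, limma, adjusted p = 0.0414). It was not called without control replicate 1 (0.115) or 3 (0.111), or without PGAM5 KD replicate 1 (0.104) or 2 (0.113). TPM and quantile normalization also ended the call of Atp5l (limma, adjusted p = 0.126 and 0.0690). Atp5l held 78.8% to 81.3% of the fragments on it and on 16 resembling genes, and the summed log2 difference was 0.25. Atp5mpl, a small proteolipid, ranged from 49.0 to 54.9 FPKM in control and from 52.2 to 72.6 FPKM in PGAM5 KD libraries (log2 fold change 0.28, SE 0.113, limma, adjusted p = 0.106), with an adjusted p of 0.0194 without PGAM5 KD replicate 3. Atp5k, subunit e, had a log2 fold change of 0.17 (limma, adjusted p = 0.0956), and 0.0154 was the adjusted p without PGAM5 KD replicate 1. Atp5j2, subunit f, had 0.11 (limma, adjusted p = 0.102). Atp5s, coupling factor B, was low, at 2.19 to 3.05 FPKM in control and 2.49 to 3.79 FPKM in PGAM5 KD libraries (log2 fold change 0.13, SE 0.150, limma, adjusted p = 0.550).

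Counting the libraries one at a time, 11 of the 18 called genes were called in each of the 6 fits that left out a library. These were Uqcrc1 and Uqcrq in complex III, Cox4i1, Cox5a, Cox7a2l, Cox7b and Cox8a in complex IV, and Atp5b, Atp5d, Atp5h and Atp5o in complex V. In complex V, 4 genes remained called without control replicate 3.

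The subunits made inside the mitochondrion moved the other way. All 5 tested mRNAs were lower in PGAM5 KD cells, beside 14.9% of all genes, with log2 fold changes of -1.06 for mt-Atp6 of complex V, -0.77 for mt-Cytb of complex III, and -0.90, -0.52 and -0.51 for mt-Co3, mt-Co2 and mt-Co1 of complex IV (limma, adjusted p from 8.51e-05 to 0.00738). mt-Cytb measured 1244, 1337 and 1272 FPKM in control and 797, 753 and 709 FPKM in PGAM5 KD libraries, and all 5 stayed lower with TPM, quantile normalization and the correction for exon length and GC content. Their levels differed widely, with means of 2163 FPKM for mt-Co1 but 20.3 for mt-Co2, 14.3 for mt-Atp6 and 12.3 for mt-Co3. mt-Atp6 had 99 to 308 fragments a library. mt-Atp8 had 1 to 4 fragments a library and was below the filter. Whether fragments of these mRNAs were lost to genes of similar sequence was not tested.

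**Figure D3:**
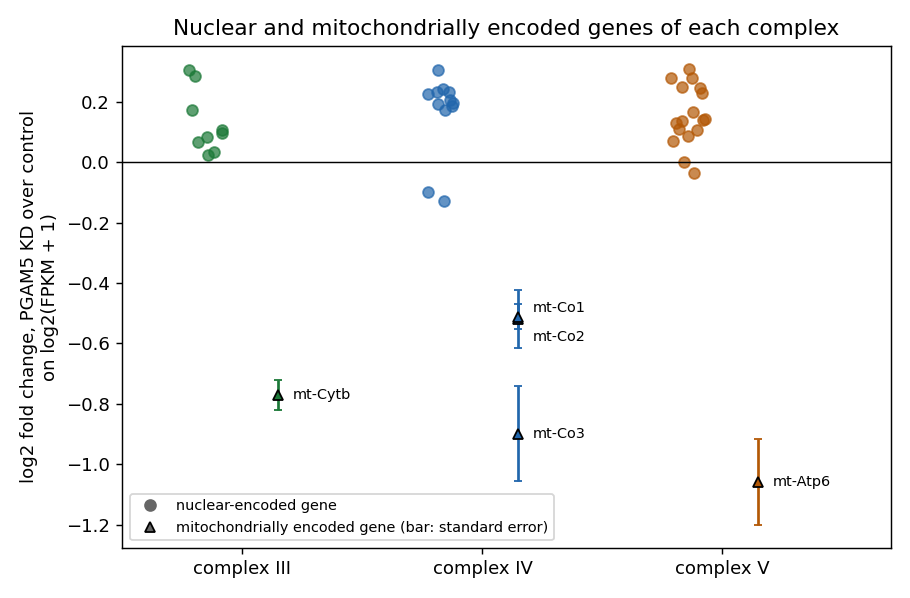
The log2 fold change of PGAM5 KD over control on log2(FPKM + 1) for the tested nuclear-encoded genes (circles) and mitochondrially encoded genes (triangles, with standard errors) of each complex. Circles lie between -0.13 and 0.31 and triangles between -1.06 and -0.51.

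Among related genes outside the set, Usmg5, or DAPIT, a further membrane subunit of ATP synthase, measured 319.3, 334.6 and 331.4 FPKM in control and 431.1, 412.7 and 370.1 FPKM in PGAM5 KD libraries. It was higher in each PGAM5 KD library (log2 fold change 0.30, SE 0.057, limma, adjusted p = 0.00821), but with quantile normalization its log2 fold change was 0.15 and it was not called (limma, adjusted p = 0.103). Ndufa4, now placed in complex IV, had a log2 fold change of 0.02 (limma, adjusted p = 0.712). The electron carrier Cycs (0.08) and the heme lyase Hccs (0.13), which attaches heme to cytochrome c, were not called.

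Assembly factors were mixed. Of 5 tested factors of complex III, 1 was higher (20.0%, near the 16.8% of all genes), Uqcc3, at 0.33 (limma, adjusted p = 0.0321). It was not called without control replicate 2 or any of the PGAM5 KD libraries, with adjusted p-values up to 0.0907 in limma, nor with TPM or the correction. Of 21 tested factors of complex IV, 5 were higher (23.8%, beside 16.8% of all genes) and 1 was lower. With TPM, 3 were higher (14.3%, beside 10.3%). Higd1a, an inner membrane protein induced by low oxygen that binds complexes III and IV, measured 11.2, 9.72 and 9.20 FPKM in control and 14.9, 17.1 and 16.1 FPKM in PGAM5 KD libraries. The groups were well apart, and its log2 fold change was 0.63 (SE 0.080, limma, adjusted p = 0.00152). Cmc1 (0.37), which acts on Cox1 early in assembly, and Coa3 (0.32), which works on newly made Cox1, were higher too. The other higher genes, Cox16 (0.23) and Cox19 (0.29), were less stable. Cox16 was called in 0 of the 6 fits with a library left out, with adjusted p-values from 0.0513 to 0.0744 in limma. Cox19 lost its call without control replicate 3 (0.0621), PGAM5 KD replicate 1 (0.0533) or PGAM5 KD replicate 3 (0.0632). Without control replicate 3 or PGAM5 KD replicate 3, 3 factors of complex IV were called higher. Coa5, another assembly factor, was lower (log2 fold change -0.27, SE 0.054, limma, adjusted p = 0.00980). Of 6 ATP synthase factors, 3 were higher, beside 16.8% of all genes. With TPM 2 were higher (33.3%, beside 10.3% of all genes). With the correction for exon length and GC content 1 was (16.7%, near the 14.6% of all genes). Tmem70, which helps the c-ring assemble, rose from 20.9, 20.2 and 21.2 FPKM in control to 25.2, 25.4 and 24.6 FPKM in PGAM5 KD libraries (log2 fold change 0.26, SE 0.038, limma, adjusted p = 0.00272). Fmc1 (0.36) and Tmem242 (0.32) were higher with all libraries but kept the call in 1 of the 6 fits with a library left out, the fit without PGAM5 KD replicate 1, and the other 5 omissions gave adjusted p-values up to 0.130 and 0.0756 in limma. The inhibitor Atpif1 was not called (0.13, limma, adjusted p = 0.0828).

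Complexes I and II, where electrons enter the chain, were compared on the same scale. Of 36 tested nuclear-encoded complex I genes, 9 were higher (25.0%, beside 16.8% of all genes) and 0 lower, with a median log2 fold change of 0.12. With TPM 4 were higher (11.1%, beside 10.3% of all genes, median 0.04), and with the correction for exon length and GC content 5 were (13.9%, beside 14.6%), so both shares were near those of all genes. Without PGAM5 KD replicate 2, 4 were called higher. Of the 4 complex II genes, Sdhd was higher (0.27, limma, adjusted p = 0.00400) and Sdha lower (-0.09, limma, adjusted p = 0.0459). The Sdha call was lost with any library left out, at adjusted p-values from 0.0647 to 0.123 in limma. Differences between complexes were not tested.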

How the data were processed

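RNA-seq of 6 libraries (3 control, 3 PGAM5 KD, all LPS-treated iBMDMs) was analysed, with groups from the shRNA named in each label. The authors deposited FPKM per Ensembl gene, not counts. The submitters' processing notes name HISAT2 2.0.5, featureCounts 1.5.0-p3 and mm10, and both strand-specific and non-directional library chemistry is described, so strand is not given. Names, coordinates and exon lengths came from GENCODE M21 (54495 of 54532 identifiers). FPKM times exon length fell close to whole fragments for 96.8% to 97.1% of nonzero values, with the highest values left out. The step between these values gave each library's depth.

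The test was limma (version 3.58.1, R 4.3.3) on log2(FPKM + 1) (mean-variance trend, two-sided, Benjamini-Hochberg) for genes with a mean of at least 1 FPKM over the 6 libraries. Fold changes are on this scale, which understates low genes. The script was checked on simulated data. The set and all gene lists were chosen with earlier results of these data known, so no test was made over a list. Every gene of the set is accounted for. Library values are given for the 5 called genes of each complex with the largest change, for paralogs and tissue isoforms, and for the signature subunits Cyc1, Uqcrfs1, Cox4i1, Cox5a, Atp5a1 and Atp5b. The rule names at most 4 called genes per further list, by size of change. Further genes, among them Coa5, Cox16 and mt-Co1, were added after their values were seen. Replicates did not agree within sampling noise in any pair, so each library counted once. Alternatives were another pseudocount (0.1), other filters, TPM, quantile and median scaling, no trend, a replicate block, each library left out, protein-coding genes only, voom on the recovered fragments, and a per-library correction for exon length and GC content (splines with 4 degrees of freedom). Resembling genes were found with blastn 2.17.0 (at least 85% identity over 200 bases). No count model served as the main test, since FPKM is not a count. Tables were handled in pandas 2.3.3 (Python 3.11.15) and plots drawn in matplotlib 3.10.9. Promoter sequences are RefSeq's. No promoter was matched for Cyc1, Uqcrb, Uqcrc2, Uqcrq, Cox4i1, Cox4i2, Cox6a2, Cox6c, Cox8c, Atp5a1, Atp5mpl and the further Atp5o gene.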

Additional observations from a re-analysis of the deposited data

How the results depend on the processing

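Pgam5 kept its direction and call in each alternative run. The 18 genes called higher became 10 with quantile normalization, 8 with TPM and 7 with the correction for exon length and GC content, 12 without a filter, 13 without a trend and 21 with voom, and lay between 12 and 18 with a library left out. The 0 called lower became 1 with each of quantile normalization, TPM and the correction. Complex III went from 3 to 1 with TPM. Complex IV went from 7 to 4, 4 and 2 with quantile normalization, TPM and the correction, with 1 lower under the last 2. Complex V went from 8 to 5 with no filter, no trend or a replicate block, to 4 with quantile normalization (1 lower), to 3 with TPM or the correction, and to between 4 and 8 with a library left out. Medians in that order (quantile, TPM, correction) were 0.020, 0.020 and -0.015 in complex III, 0.132, 0.124 and 0.082 in complex IV, and 0.124, 0.075 and 0.091 in complex V, where a pseudocount of 0.1 gave 0.154, voom 0.159, and omissions 0.125 to 0.175. Signs turned, in that order of settings, for Cyc1 (-0.058, -0.044, -0.073), Uqcrfs1 (-0.064, -0.056, -0.111), Uqcrh (-0.026, -0.012, -0.074) and Atp5c1 (-0.010, -0.008, -0.041), for Uqcrc2 with quantile (-0.006) and the correction (-0.015), for Uqcrb with the correction (-0.029), and for Atp5a1 (-0.118) and Atp5b (-0.029) with quantile normalization. With a library left out, Uqcrfs1 ranged from -0.028 to 0.070, Uqcrh from -0.036 to 0.158, Cox7a1 from -0.312 to 0.025, Atp5g3 from -0.111 to 0.007, Atp5s from -0.016 to 0.218 and Atp5g2 from -0.035 to 0.023, and Atp5g2 read 0.006 after centring and 0.002 with voom. The causes were not tested. Replicate numbers did not pair the libraries (correlations of -0.020, 0.016 and -0.052 between same-numbered libraries), and a replicate block, the pairing by number, gave 15 higher. The median log2 fold change with the block was 0.097, 0.202 and 0.138 in complexes III, IV and V.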

Other observations

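Known activators of respiratory chain genes were measured in the same libraries. Of 8 tested, 1 was higher (12.5%, beside 16.8% of all genes) and 1 was lower (beside 14.9% of all genes) in PGAM5 KD cells. With TPM 2 of the 8 were lower, beside 2282 of all 10540 genes tested. These were Pprc1 and Gabpa (limma, adjusted p = 0.0491 for Gabpa), and Gabpa shares exon bases with Atp5j on the other strand. Esrra, a nuclear receptor that binds promoters of many respiratory genes, measured 13.9, 14.1 and 14.3 FPKM in control and 19.0, 20.8 and 20.9 FPKM in PGAM5 KD libraries. The groups were far apart (log2 fold change 0.49, SE 0.049, limma, adjusted p = 0.000548), and the call held with each library left out. Pprc1, a coactivator that works with NRF1, measured 26.7, 26.8 and 30.3 FPKM in control and 22.6, 22.8 and 23.1 FPKM in PGAM5 KD libraries. All PGAM5 KD libraries were lower (log2 fold change -0.28, SE 0.055, limma, adjusted p = 0.00985). The other 6 did not pass the test, with log2 fold changes of -0.33 for Ppargc1b, 0.27 for Gabpb1, 0.11 for Tfam, -0.06 for Gabpa, -0.04 for Yy1 and 0.02 for Nrf1. With voom on the recovered fragments Gabpb1 was called higher (limma, adjusted p = 0.0164) and Ppargc1b lower (limma, adjusted p = 0.0299). This made 2 of the 8 higher and 2 lower, beside 18.8% and 18% of all genes. PGAM5 KD libraries lay above control libraries without overlap for Gabpb1 and overlapped them for Ppargc1b. Ppargc1a had 4 fragments over the 6 libraries.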
